A study of Mus musculus with 8 samples.

Results

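Of the 16889 genes in the UMI table of sorted colonic myeloid cells, 7 encode the chemokine, atypical chemokine and formyl peptide receptors examined here: Ccr1, Ccr2, Ccr7, Cxcr4, Ccrl2, Fpr1 and Fpr2. They were taken by name, with Cx3cr1 left out, and not by any measured value. All 7 passed the filter on low counts in the sums of all cells and in the sums per cluster, so none was lost from the tests below.

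Chemokine receptors are G protein-coupled receptors that steer leukocytes along ligand gradients. They signal through inhibitory G proteins and are switched off by receptor kinases, arrestins and regulators of G protein signalling. In the colon, blood monocytes that enter the lamina propria carry CCR2 and lose it as they mature into resident macrophages, so that CCR2 is used as a marker of the early stages of this transition. Formyl peptide receptors sense N-formylated peptides of bacteria and mitochondria, and atypical receptors bind ligand without classical G protein signalling.

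Single-cell RNA-seq was performed on CD11b+ cells from the colonic lamina propria of 8 female CD98hcΔCX3CR1 mice, littermates aged 6 to 12 weeks as the study's methods give for its experiments, in which a tamoxifen-inducible Cre with a YFP reporter in the Cx3cr1 locus acts on floxed CD98hc (Slc3a2). All mice of both groups carried the floxed alleles and the Cre. The 4 control mice (replicates 1 to 4) received corn oil and the 4 cKO mice (replicates 5 to 8) received tamoxifen on 5 consecutive days, with cells taken on day 7, so that an effect of tamoxifen and an effect of the deletion cannot be told apart. The comparison asks what loss of CD98hc in CX3CR1-expressing cells does to monocytes and macrophages. Cells were sorted as CCR2+ or CD64+ or both after exclusion of cells positive for lineage markers, so CCR2 protein was itself part of the gate.

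After filtering, 1863 control and 1350 cKO cells remained, with 589135 to 3762314 UMIs per control mouse and 497531 to 2486236 per cKO mouse; control replicate 3 and cKO replicate 5 had under 100 cells each (85 and 83). Barcodes looked recoded, which no label states, and 24 of them occurred in 2 libraries, a number that was not compared with chance. Slc3a2 stood at 233 to 493 CPM (UMIs of the gene per 1000000 UMIs) in control and 291 to 357 CPM in cKO mice (log2 fold change of 0.02 ± 0.21 SE). Counts from the 3' end of transcripts do not show excision of internal exons, so this does not check the labels. EYFP ranged from 35.0 to 86.1 CPM in control and from 14.1 to 46.2 CPM in cKO mice (adjusted p = 0.104, edgeR quasi-likelihood test).

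Ward clustering without the receptor, ligand and signalling genes was cut at 9 clusters, a number that was set and not found from the data. A graph clustering, used as an alternative, gave 14. Genes that the study lists as differentially expressed between cKO and control cells were also left out. A monocyte-like cluster (431 cells) was led by Chil3 and Pglyrp1, a macrophage-like cluster (363 cells) by Fcrls, Pf4 and C1qc, and a second macrophage-like cluster of low UMI content (269 cells, median of 1157 UMIs) by Ccl8, Cela1 and Pf4. A dendritic cell-like cluster (544 cells) was led by Cd209a and Xcr1, a lymphoid-like one (179 cells) by Jchain and Mzb1, and a stromal-like one (86 cells) by Dcn and Col3a1. The remaining clusters were left unnamed and are called by their leading genes: Ccl24/Saa3 (749 cells), Cebpb/Jund (358 cells, median of 1801.5 UMIs) and Dmkn/Arg2 (234 cells, of which 204 were cKO cells and 129 came from cKO replicate 7).

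The makeup of the sort differed between the groups. Dendritic cell-like cells made up 20.6% to 27.7% of the cells of control mice and 4.75% to 10.1% of cKO mice, and monocyte-like cells 8.24% to 13.1% and 14.7% to 20.9%. The 11 monocyte markers summed to 1545 to 3350.1 CPM in control and 7011 to 10613 CPM in cKO mice, and the 8 markers of type 2 dendritic cells to 670.0 to 869 CPM and 148 to 300.1 CPM, with no marker of either list at 0 in any mouse. In a sum over all cells of a mouse, fewer cells of a type and less RNA per cell cannot be told apart, and each receptor is therefore given in the whole sort and within clusters.

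With all cells of each mouse summed, 3 of the 7 receptors passed the threshold: Cxcr4, Ccrl2 and Fpr2 were higher in cKO mice and none was lower (edgeR quasi-likelihood test over 11387 genes, Benjamini-Hochberg adjusted p under 0.05). Among all genes tested, 2.99% were called higher and 1.48% lower. The median log2 fold change of the 7 receptors was 0.75, against -0.03 over all genes tested. When cKO and control were instead compared within clusters and averaged over the 6 clusters with at least 3 mice per group, Ccrl2 and Fpr1 were higher and Ccr2 was lower, with 1.89% of 10639 genes called higher and 0.837% lower. The median of the 7 was then -0.03, against -0.02 over all genes, counting a value for Ccr7 that had no usable error. Ccrl2 was the only receptor called in both. Within single clusters, Ccr2 and Fpr1 were called in the Ccl24/Saa3 cluster. In the dendritic cell-like, monocyte-like, Cebpb/Jund, low-UMI macrophage-like and lymphoid-like clusters 0 of the 7 receptors were called with edgeR, where 0.376%, 0.489%, 0.761%, 0.132% and 0.0658% of all genes were called and 1, 1, 4, 1 and 1 receptors had an unadjusted p under 0.05. Over single clusters DESeq2 called 3 receptor values, all of them Ccr2 (in the Ccl24/Saa3, monocyte-like and Cebpb/Jund clusters), and did not call Fpr1. The shares of all genes given here are from edgeR, and none is given for DESeq2.

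**Figure D1:**
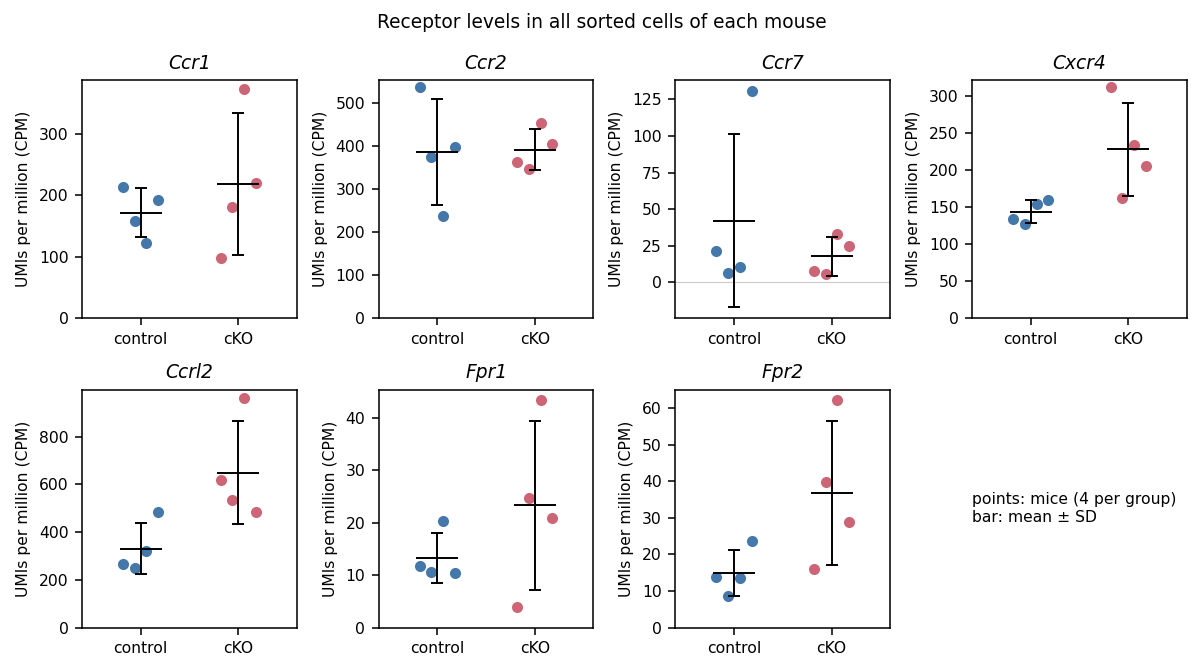
Each panel shows CPM of 1 receptor in all sorted cells of each of the 4 control and 4 cKO mice, with the mean and SD as a bar. The cKO mice lie above all control mice for Cxcr4 and Ccrl2, while the groups overlap for the other receptors and 1 control mouse stands at 131 CPM for Ccr7.

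Ccr2 (ENSMUSG00000049103, chr9:124101950-124113557, plus strand, GRCm38) encodes the receptor for CCL2 and CCL7 that brings monocytes out of the bone marrow. In all cells summed it stood at 537, 374, 236 and 398 CPM in the control mice and at 362, 346, 452 and 404 CPM in the cKO mice. The groups overlapped, and the fitted change was 0.11 ± 0.21 (log2, SE; adjusted p = 0.810).

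Across clusters, Ccr2 was highest in monocyte-like cells, at a mean of 9.74 on the log2(CPM + 10) scale over 6 mice. The Dmkn/Arg2, Cebpb/Jund and Ccl24/Saa3 clusters followed at 9.18, 9.07 and 9.05. Macrophage-like cells stood at 7.97, dendritic cell-like cells at 7.74, lymphoid-like cells at 7.61, macrophage-like cells of low UMI content at 7.47 and stromal-like cells, from 1 mouse, at 4.96. The step from the Ccl24/Saa3 to the macrophage-like cluster was 1.38 ± 0.53 (SD) and was present in 4 of 4 mice (p = 0.125, two-sided exact sign-flip permutation test, the smallest p that 4 mice allow). No pair of neighbouring clusters of any receptor passed the adjustment over 49 pairs, for which the lowest adjusted p was 0.383. A UMI of Ccr2 was found in 90.0% of monocyte-like cells (388 of 431) and in 6.98% of stromal-like cells (6 of 86), at median depths of 4692 and 4823.5 UMIs.

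Within clusters the picture differed from that of the whole sort. In monocyte-like cells, Ccr2 stood at 1116, 1222 and 1053 CPM in the 3 control mice with at least 20 such cells and at 530.3, 788 and 614 CPM in the 3 cKO mice. In the Ccl24/Saa3 cluster the control mice had 881, 795 and 561 CPM and the cKO mice 403, 368, 415 and 432 CPM. In the Cebpb/Jund cluster the control mice had 967, 847 and 556 CPM and the cKO mice 384, 371 and 323 CPM. Among mice with at least 20 cells, every cKO mouse lay below every control mouse in each of these 3 clusters. This was the case for 6.5%, 6.29% and 5.63% of all genes in the monocyte-like, Ccl24/Saa3 and Cebpb/Jund clusters. Control replicate 3 fell under this cut. It had 614 CPM in 7 monocyte-like cells, 307 CPM in 16 Ccl24/Saa3 cells and 385 CPM in 16 Cebpb/Jund cells. In the monocyte-like and Ccl24/Saa3 clusters it did not lie above every cKO mouse.

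The fitted change of Ccr2 was -0.77 ± 0.25 in monocyte-like cells (adjusted p = 0.227), -0.87 ± 0.23 in the Ccl24/Saa3 cluster (adjusted p = 0.0338) and -1.01 ± 0.28 in the Cebpb/Jund cluster (adjusted p = 0.0660). In the Ccl24/Saa3 cluster, 0.235% of genes were called lower. Averaged over the 6 clusters tested, Ccr2 fell by 0.61 on the log2 scale (SE 0.12, adjusted p = 0.000847), and the fitted value was lower in cKO mice in 6 of 6 clusters. This average passed the threshold under all 19 alternative settings run for it, with values from -0.72 to -0.46 and a largest adjusted p of 0.0439. The test of a difference between clusters did not call Ccr2 (unadjusted p = 0.264). The call in the Ccl24/Saa3 cluster was lost without control replicate 1 (-0.71) or 2 (-0.84) and without cKO replicate 5 (-0.85), 6 (-0.84) or 8 (-0.91), and the Cebpb/Jund value passed the threshold without control replicate 4 (-1.24).

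These calls of Ccr2 within single clusters also depended on the tool and the clustering. DESeq2 called Ccr2 in monocyte-like cells (-0.85, adjusted p = 0.0287) and in the Cebpb/Jund cluster (-1.17, adjusted p = 0.00465). Limma-voom also called it in monocyte-like cells (-0.79, adjusted p = 0.0439), as did edgeR with each cluster fitted alone (-0.83, adjusted p = 0.00230). In the Cebpb/Jund cluster it was also called by edgeR with RLE factors, with no low-count filter, with doublet calls left out and with each cluster fitted alone, with adjusted p from 0.00572 to 0.0310. The call in the Ccl24/Saa3 cluster was lost with up to 10% mitochondrial UMIs (-0.88), with at least 10 cells per sum (-0.68), without the mice of under 100 cells (-0.85) and with Ward clustering on all genes (-0.38, adjusted p = 0.841).

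The remaining clusters gave fewer mice or no separation. In the Dmkn/Arg2 cluster, the only control mouse with at least 20 cells had 806 CPM of Ccr2 and the 3 cKO mice had 494, 511 and 523 CPM. In macrophage-like cells, 3 control mice had 292, 229 and 177 CPM and the only cKO mouse with at least 20 cells had 283 CPM. Dendritic cell-like cells had 300.2, 249.9, 189.6 and 173 CPM in control and 161, 120.4 and 303 CPM in cKO mice, which overlap.

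The share of cells with a Ccr2 UMI did not move in 1 direction over the clusters. In monocyte-like cells it was 94.2% in control (194 of 206 cells, 95% Wilson interval of 90.1% to 96.6%) and 86.2% in cKO mice (194 of 225 cells, 81.1% to 90.1%). With cells of at least 1000 UMIs thinned to that number, these shares were 61.8% and 43.0%. They were 48.9% and 36.6% in the Ccl24/Saa3 cluster, 48.1% and 28.3% in the Cebpb/Jund cluster and 56.7% and 33.3% in the Dmkn/Arg2 cluster. Cells with fewer UMIs than the target were left out of these and all other thinned shares. At 1000 UMIs they were 95 of 269 macrophage-like cells of low UMI content and 50 of 358 Cebpb/Jund cells. Raw and thinned shares therefore cover different cells in these clusters. In macrophage-like cells the share was higher in cKO mice, at 39.8% of 299 control and 57.8% of 64 cKO cells (15.6% and 31.0% after thinning). In lymphoid-like cells it was 44.3% and 34.1%, but 17.4% and 22.2% after thinning, and in macrophage-like cells of low UMI content 13.3% and 16.7%, but 13.5% and 12.9% after thinning. The intervals cover counting error only. Over all cells of a mouse, a Ccr2 UMI was found in 60.5% ± 4.44 of control cells and 63.0% ± 3.33 of cKO cells (mean and SD over 4 mice each; exact permutation test, two-sided, p = 0.400, adjusted over 7 receptors 0.560). The rise in the share of monocyte-like cells, the cluster with the highest Ccr2, is given above; its part in the level of the whole sort was not tested.

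**Figure D2:**
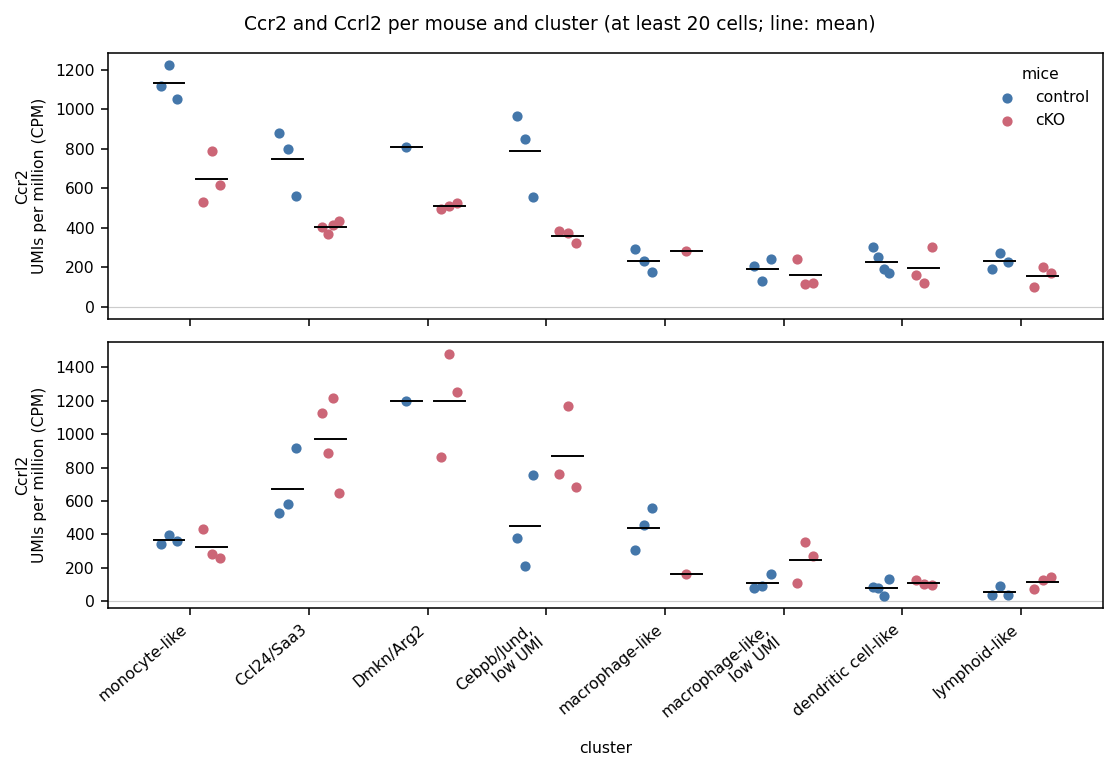
CPM of Ccr2 (top) and Ccrl2 (bottom) in each mouse with at least 20 cells of a cluster, control on the left and cKO on the right of each position, with a line at the mean. For Ccr2 the cKO mice lie below the control mice in the monocyte-like, Ccl24/Saa3, Dmkn/Arg2 and Cebpb/Jund clusters, with 1 control mouse in the Dmkn/Arg2 cluster; for Ccrl2 the groups overlap in most clusters.

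Ccr1 (ENSMUSG00000025804, chr9:123962124-123968692, minus strand) encodes a receptor for CCL3, CCL5 and related chemokines that is shared by monocytes and macrophages. It lies 133 kb from Ccr2 in a block of chemokine receptor genes. Its levels in all cells were 214, 159, 122 and 193 CPM in control and 98.5, 181, 374 and 220.5 CPM in cKO mice. Both the lowest and the highest mouse were cKO mice (0.47 ± 0.32, adjusted p = 0.450).

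Ccr1 was high throughout the myeloid clusters. It stood at 8.79 in the Dmkn/Arg2 cluster (4 mice), 8.40 in macrophage-like cells and 8.39 in monocyte-like cells on the log2(CPM + 10) scale, which did not differ beyond their spread. The Ccl24/Saa3 cluster stood at 7.91, the Cebpb/Jund cluster at 7.60 and the macrophage-like cluster of low UMI content at 7.14. Dendritic cell-like cells stood at 5.87, and monocyte-like cells of the same mouse exceeded them by 2.23 ± 0.33 (SD) in 6 of 6 mice. Unlike Ccr2, for which monocyte-like cells exceeded macrophage-like cells by 1.97 ± 0.64 in 4 of 4 mice, Ccr1 differed between these clusters by -0.03 ± 0.30.

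No test called Ccr1 between the groups. The average over clusters was -0.06 ± 0.25 (adjusted p = 0.9999). Fitted values were higher in cKO mice in 3 of the 6 clusters and lower in the other 3. Reads that Ccr1 or Ccr2 share with close paralogs cannot be placed with certainty.

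Ccr7 (ENSMUSG00000037944, chr11:99144196-99155077, minus strand) encodes the receptor for CCL19 and CCL21 that takes mature dendritic cells to lymph nodes. It was rare: 648 UMIs fell in 96 of 3213 cells, and 10 cells held 61.1% of them. Its levels in all cells were 21.3, 6.73, 10.2 and 131 CPM in control mice and 8.04, 5.44, 33.0 and 24.9 CPM in cKO mice. The value of control replicate 4 set the sign of the difference, which was -1.06 ± 0.80 with all mice (adjusted p = 0.495) and 0.66 without that mouse.

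The dendritic cell-like cluster had the highest Ccr7, at 6.01 on the log2(CPM + 10) scale, against 4.35 in the next cluster. Of its 544 cells, 21 had at least 5 Ccr7 UMIs and together held 77.5% of all Ccr7 UMIs of the data set. They numbered 2, 2, 1 and 12 in control replicates 1 to 4 and 0, 0, 3 and 1 in cKO replicates 5 to 8. These cells were picked after their counts were seen, so the following is a description. All 10 markers of mature dendritic cells were higher in them than in the 490 cells of the cluster without a Ccr7 UMI. Ccl22 stood at 1538 against 8.71 CPM, Il4i1, which encodes an amino acid oxidase, at 1123 against 6.16 CPM and the actin-bundling Fscn1 at 551 against 0.637 CPM. Xcr1 and Clec9a, markers of type 1 dendritic cells, had no UMI in the 21 cells and stood at 203 and 76.0 CPM in the 490 cells. Other type 1 markers were still found in the 21 cells, with Batf3 at 191 against 209 CPM and Irf8 at 387 against 1505 CPM. The type 2 markers were mixed. Zbtb46 had no UMI in the 21 cells, against 28.7 CPM, and Cd209a was lower (224 against 455 CPM). Mgl2 and Ltb were higher (420 against 325 CPM and 131 against 11.9 CPM).

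The receptors themselves also differed in these cells. Ccr2 stood at 21.8 CPM in the 21 cells and at 251 CPM in the cells without Ccr7, whereas Ccrl2 stood at 289 and 82.0 CPM and Cxcr4 at 131 and 56.9 CPM. Median depths were alike, at 8878 and 9151 UMIs, and none of the 21 cells was called a doublet. The dendritic cell-like cluster gave no difference in Ccr7 between the groups (-0.20 ± 0.62, adjusted p = 0.990).

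Outside dendritic cell-like cells, Ccr7 was near the limit of detection. In the Ccl24/Saa3 cluster, 10 UMIs were counted in control cells and 39 in cKO cells. The control mice lay between 0 and 9.15 CPM and the cKO mice between 12.3 and 26.1 CPM, and 4.06% of all genes had every cKO mouse above every control mouse in this cluster. The change was not called (2.02 ± 1.06, adjusted p = 0.587). No Ccr7 UMI was found in 269 macrophage-like cells of low UMI content, which allows a share of cells with a UMI of up to 1.12%. The average over clusters had no usable error for Ccr7 and is not given.

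**Figure D3:**
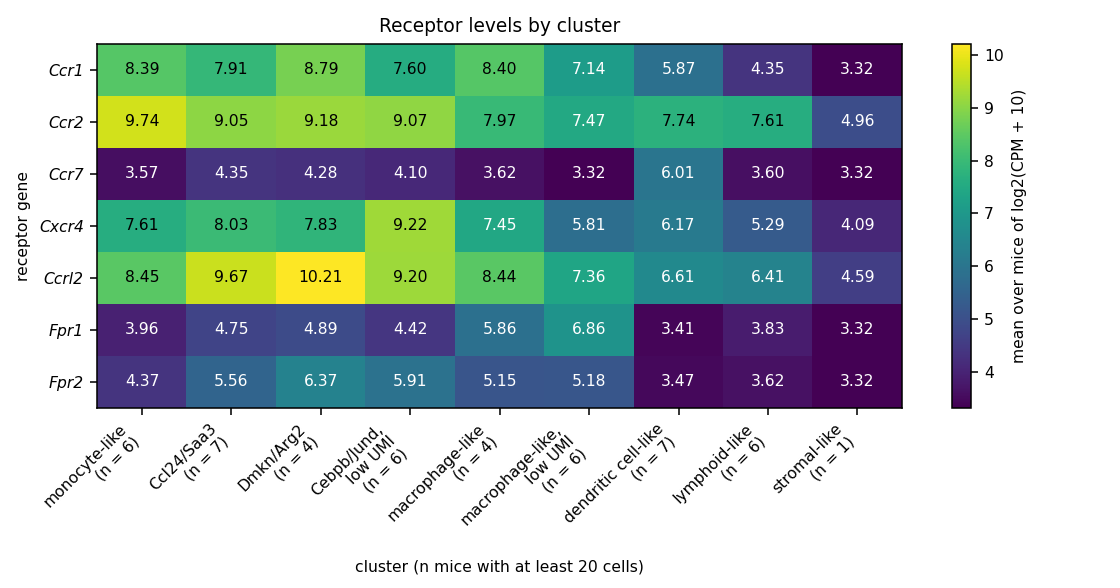
Mean over mice of log2(CPM + 10) for each receptor (rows) and cluster (columns), with the number of mice with at least 20 cells under each cluster; 3.32 stands for no UMI. Ccr2 peaks in monocyte-like cells at 9.74, Cxcr4 in the Cebpb/Jund cluster at 9.22, Ccrl2 in the Dmkn/Arg2 cluster at 10.21, Fpr1 in macrophage-like cells of low UMI content at 6.86 and Ccr7 in dendritic cell-like cells at 6.01.

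Cxcr4 (ENSMUSG00000045382, chr1:128588199-128592293, minus strand) encodes the receptor for CXCL12, which retains immature leukocytes in the bone marrow and is found on newly arrived monocytes. Its levels in all cells were 134, 127, 154 and 159 CPM in control and 312, 163, 233 and 205 CPM in cKO mice. All cKO mice lay above all control mice, as was the case for 4% of all genes, while 8.34% of genes and 0 of the 7 receptors had all cKO mice below. The fitted change was 0.75 ± 0.19 (adjusted p = 0.0462), and the exact permutation test of the means gave p = 0.0286, the smallest that 4 against 4 mice allow.

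Cxcr4 was highest in the Cebpb/Jund cluster, at 9.22 on the log2(CPM + 10) scale. It exceeded the next cluster, Ccl24/Saa3 at 8.03, by 1.31 ± 0.21 (SD) within mice, in 6 of 6 mice (exact sign-flip permutation p = 0.0313, the smallest for 6 mice, adjusted over 49 pairs 0.383). The Cebpb/Jund cluster was of low depth. A Cxcr4 UMI was found in 58.4% of its cells and, after thinning to 1000 UMIs, in 40.3%, against 21.7% of Ccl24/Saa3 cells. Thinned shares were 6.37% in dendritic cell-like cells and 0 of 83 cells in stromal-like cells.

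Within clusters, Cxcr4 was not called between the groups. In the Cebpb/Jund cluster the control mice had 503, 579.6 and 627 CPM and the cKO mice 529, 597 and 703 CPM, which overlap. The average over clusters was -0.03 ± 0.16 (adjusted p = 0.9999). When the dendritic cell-like, lymphoid-like and stromal-like clusters were left out of the sum, Cxcr4 changed by 0.23 (adjusted p = 0.576), Ccrl2 by 0.54 (adjusted p = 0.248) and Fpr2 by 0.90 (adjusted p = 0.152), and 0 of the 7 receptors was called. Without the Dmkn/Arg2 cluster, an alternative chosen after seeing the data, the values were 0.69, 0.86 and 1.47 and 0 were called. The share of dendritic cell-like cells, which had low Cxcr4, Ccrl2 and Fpr2, was lower in all cKO mice than in all control mice, and that of Dmkn/Arg2 cells was 1.20% to 26.7% in cKO and 0% to 4.19% in control mice. Their part in the calls of the whole sort was not tested. The call of Cxcr4 in all cells was also lost without control replicate 1 (0.73), 2 (0.69) or 3 (0.80) and without cKO replicate 5 (0.61), 7 (0.72) or 8 (0.81).

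Ccrl2 (ENSMUSG00000043953, chr9:111054486-111057519, minus strand) encodes an atypical receptor that binds chemerin, the product of Rarres2, and presents it to cells that carry the signalling receptor CMKLR1. It is known as a gene induced by inflammatory stimuli in macrophages. Its levels in all cells were 268, 249.5, 321 and 483 CPM in control and 619, 534, 960.1 and 484 CPM in cKO mice. All cKO mice lay above all control mice, but the highest control mouse and the lowest cKO mouse were nearly equal. The fitted change was 1.08 ± 0.26 (adjusted p = 0.0386). It was no longer called without control replicate 1 (0.99), 2 (0.95) or 3 (1.08) or without cKO replicate 5 (1.13), 6 (1.17) or 7 (0.80).

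Ccrl2 was highest in the Dmkn/Arg2 cluster, at 10.21 on the log2(CPM + 10) scale, followed by the Ccl24/Saa3 cluster at 9.67 and the Cebpb/Jund cluster at 9.20. Monocyte-like and macrophage-like cells stood at 8.45 and 8.44, and dendritic cell-like cells at 6.61. A UMI of Ccrl2 was found in 86.8% of Dmkn/Arg2 cells and in 11.6% of stromal-like cells (10 of 86). After thinning to 1000 UMIs the shares were 54.3% and 2.41%. The Dmkn/Arg2 cluster could not be tested between the groups; its single control mouse had 1196 CPM and its 3 cKO mice 866, 1477 and 1253 CPM.

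Averaged over the 6 clusters, Ccrl2 rose by 0.69 ± 0.16 on the log2 scale (adjusted p = 0.00706), and 5 of the 6 fitted values were higher in cKO mice. The exception was the monocyte-like cluster, with 343, 394 and 359 CPM in control and 433, 283 and 257 CPM in cKO mice (-0.13 ± 0.31). In the Cebpb/Jund cluster the control mice had 379, 208 and 757 CPM and the cKO mice 761, 1169 and 687 CPM. These groups overlapped through 1 control mouse (1.10 ± 0.34, adjusted p = 0.128). In lymphoid-like cells the values were 34.8, 88.6 and 36.3 CPM in control and 76.2, 125 and 147 CPM in cKO mice (1.18 ± 0.52, adjusted p = 0.699). The call of the average was lost without control replicate 1 (0.57) or cKO replicate 7 (0.57), with limma-voom with or without mouse as a random effect, with at least 10 cells per sum and with the Ward clustering on all genes (0.33, adjusted p = 0.290).

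**Figure D4:**
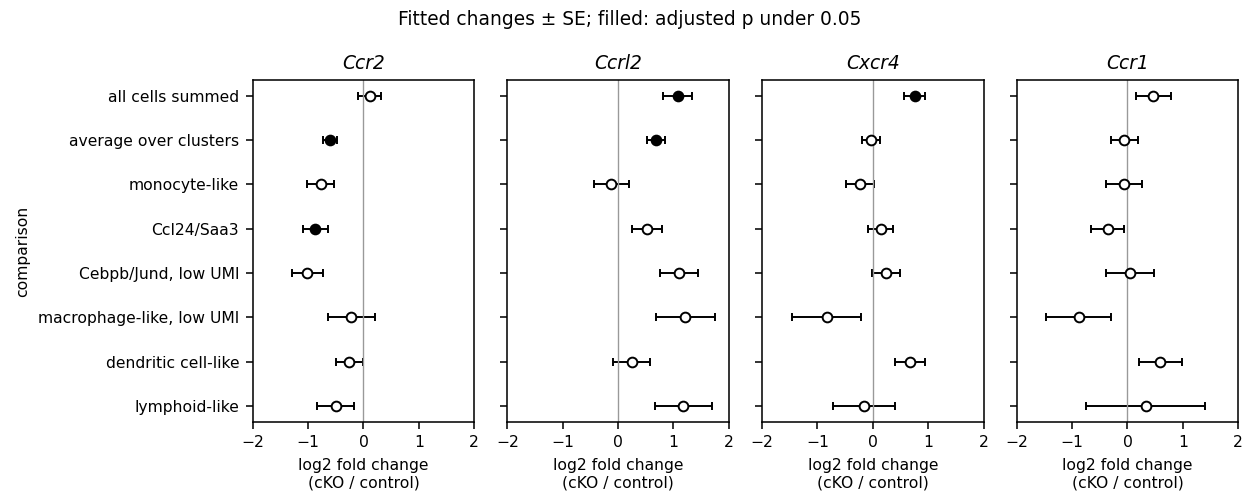
Fitted log2 fold change (cKO over control) with SE for Ccr2, Ccrl2, Cxcr4 and Ccr1 in all cells summed, on average over 6 clusters and in each of them; filled points have an adjusted p under 0.05. Ccr2 is at 0.11 in the whole sort and below 0 in every cluster, whereas Cxcr4 is at 0.75 in the whole sort and -0.03 on average over clusters.

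Fpr1 (ENSMUSG00000045551, chr17:17876471-17883940, minus strand) and Fpr2 (ENSMUSG00000052270, chr17:17887824-17893952, plus strand) lie back to back on chromosome 17, with 3.88 kb between their annotated 5' ends. FPR1 binds N-formylated peptides with high affinity, and FPR2 also binds annexin A1 and serum amyloid A. Both belong to a gene family with several copies in the mouse, so reads shared between copies are uncertain. The 250 bases upstream of the RefSeq start of each gene (GRCm38.p6) are shown beside those of Cxcr4 and Ccrl2, because these are the receptors that were called higher in cKO mice in the whole sort or on average over clusters. Capitals mark a match to 1 of 6 motifs searched on both strands, which did not overlap in these windows.

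Fpr1: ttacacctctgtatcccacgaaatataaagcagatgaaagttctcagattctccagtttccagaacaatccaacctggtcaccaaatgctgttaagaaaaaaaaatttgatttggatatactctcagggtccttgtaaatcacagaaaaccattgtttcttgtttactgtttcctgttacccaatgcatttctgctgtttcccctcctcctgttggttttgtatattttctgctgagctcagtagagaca
Fpr2: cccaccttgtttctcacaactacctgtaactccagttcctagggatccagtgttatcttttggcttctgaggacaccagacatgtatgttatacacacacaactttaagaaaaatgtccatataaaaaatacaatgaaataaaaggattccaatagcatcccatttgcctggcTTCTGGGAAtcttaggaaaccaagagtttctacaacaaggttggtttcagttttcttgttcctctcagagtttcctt
Ccrl2: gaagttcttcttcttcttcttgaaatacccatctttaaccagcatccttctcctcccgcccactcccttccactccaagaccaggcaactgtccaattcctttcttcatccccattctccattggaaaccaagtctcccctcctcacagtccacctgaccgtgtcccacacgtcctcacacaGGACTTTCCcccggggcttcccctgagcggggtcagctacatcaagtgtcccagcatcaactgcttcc
Cxcr4: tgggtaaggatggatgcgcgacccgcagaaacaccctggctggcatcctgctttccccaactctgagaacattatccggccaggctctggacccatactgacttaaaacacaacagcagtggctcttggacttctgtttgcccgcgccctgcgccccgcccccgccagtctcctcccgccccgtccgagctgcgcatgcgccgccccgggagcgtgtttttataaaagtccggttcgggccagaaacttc

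The windows lie at chr17:17883940-17884189 (minus strand), chr17:17887574-17887823 (plus strand), chr9:111057519-111057768 (minus strand, the outermost of 3 RefSeq starts) and chr1:128592300-128592549 (minus strand). RefSeq starts were listed for 6 of the 7 receptors. The capitals in Ccrl2 are a match to the NF-kB-like letters GGANTTTCC, from 68 to 60 bases before the start, which 1.07% of 32851 upstream windows of the same length hold. The capitals in Fpr2 are a match to the STAT-like letters TTCNNNGAA, from 77 to 69 bases before the start, held by 7.02% of windows. The other motifs were the interferon-stimulated element (2.98% of windows), GAGGAAG (PU.1-like, 10.6%), TGATGNAA (C/EBP-ATF-like, 3.45%) and TGANTCA (AP-1, 6.75%), and none of these letters occurred in the windows of Fpr1, Fpr2, Ccrl2 or Cxcr4 shown.

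Fpr1 was sparse, with 321 UMIs in 184 cells. Its levels in all cells were 11.7, 10.7, 20.4 and 10.4 CPM in control and 4.02, 24.8, 43.4 and 21.0 CPM in cKO mice. The lowest value came from cKO replicate 5, which had 2 Fpr1 UMIs, and the other 3 cKO mice lay above all control mice. The change was 1.23 ± 0.41 (adjusted p = 0.109) and passed the threshold without that mouse (1.45, adjusted p = 0.0318).

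By cluster, the mean of Fpr1 was highest in the macrophage-like cells of low UMI content, at 6.86 on the log2(CPM + 10) scale. Macrophage-like cells followed at 5.86. Within mice these 2 clusters differed by 0.85 ± 1.08 (SD), with the first higher in 3 of 4 mice (exact sign-flip permutation p = 0.25). Control replicate 2 had 1 Fpr1 UMI in the cells of low UMI content (18.6 CPM, against 38.1 CPM in its macrophage-like cells). Monocyte-like cells stood at 3.96, and macrophage-like cells exceeded them in 4 of 4 mice by a mean of 2.12 on the log2(CPM + 10) scale. Of macrophage-like cells, 14.6% had an Fpr1 UMI (53 of 363), against 2.55% of monocyte-like cells (11 of 431) and 1 of 544 dendritic cell-like cells. No UMI was found in 86 stromal-like cells, which allows a share of up to 3.49%.

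In the Ccl24/Saa3 cluster, Fpr1 stood at 7.37, 6.44 and 13.2 CPM in control and at 6.40, 24.0, 75.4 and 22.01 CPM in cKO mice. The change was 1.94 ± 0.51 (adjusted p = 0.0376), with 0.987% of genes called higher in this cluster, and the groups overlapped through cKO replicate 5, which had 1 UMI there. Without cKO replicate 7 the value was 1.03, and the call was also lost without control replicate 1 (1.74) or 2 (1.83). DESeq2 did not call it (1.899, adjusted p = 0.153), nor did limma-voom (1.63, adjusted p = 0.177), edgeR with the cluster fitted alone (1.97, adjusted p = 0.135) or Ward clustering on all genes (2.06, adjusted p = 0.164). In the Cebpb/Jund cluster, all cells together gave 1 Fpr1 UMI in control and 16 in cKO mice, a ratio of 10.9 with an exact 95% counting interval of 1.69 to 455. Among mice with at least 20 lymphoid-like cells, the 3 cKO mice had an Fpr1 UMI there and the 3 control mice had none. In this direction, 4.33% of genes separated the groups there. All lymphoid-like cells together gave 0 Fpr1 UMIs in control and 4 in cKO mice, too few for a ratio. The average over clusters was called (2.89 ± 0.82, adjusted p = 0.0402), but it contains these clusters with control mice at 0 UMIs, in which a fitted fold change depends on the prior count and is no measure of size. It was lost without control replicate 1 or 2 (2.78 and 2.69) and without cKO replicate 6 or 7 (2.91 and 2.47).

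Fpr2 gave 453 UMIs in 301 cells. Its levels in all cells were 13.8, 8.56, 13.6 and 23.6 CPM in control and 16.1, 39.9, 62.3 and 28.9 CPM in cKO mice. The groups overlapped through cKO replicate 5, the mouse with the fewest cells. The fitted change was 1.501 ± 0.38 (adjusted p = 0.0447), and the call was lost without control replicate 1 (1.45), 2 (1.26) or 3 (1.49) and without cKO replicate 6 (1.51), 7 (1.10) or 8 (1.65). An Fpr2 UMI was found in 6.26% ± 1.96 of control cells and 12.8% ± 5.46 of cKO cells (mean and SD over 4 mice each; exact permutation p = 0.0857). With cells thinned to 1000 UMIs, these means were 1.20% ± 0.460 and 4.799% ± 0.910, and all cKO mice lay above all control mice (exact permutation p = 0.0286, adjusted over 7 receptors 0.200).

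Fpr2 was highest in the Dmkn/Arg2 and Cebpb/Jund clusters, at 6.37 and 5.91 on the log2(CPM + 10) scale. In the Cebpb/Jund cluster the control mice had 47.4, 0 and 35.5 CPM and the cKO mice 96.1, 189 and 74.4 CPM. Among these mice, each with at least 20 such cells, all cKO mice lay above all control mice (2.12 ± 0.73, adjusted p = 0.243). This was also the case for Fpr1 and for 5.9% of genes. Under that cut, cKO replicate 5 had 39.2 CPM of Fpr2 and no Fpr1 UMI, and control replicate 3 had 19.2 CPM of Fpr1. With these mice counted, neither receptor separated the groups. In the Ccl24/Saa3 cluster the control mice lay between 22.5 and 44.7 CPM and the cKO mice between 19.2 and 106 CPM (0.70 ± 0.44, adjusted p = 0.703). Fitted values for Fpr2 were higher in cKO mice in 6 of 6 clusters, including lymphoid-like cells with 1 UMI in each group, but the average over clusters was not called (0.92 ± 0.69, adjusted p = 0.703).

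**Figure D5:**
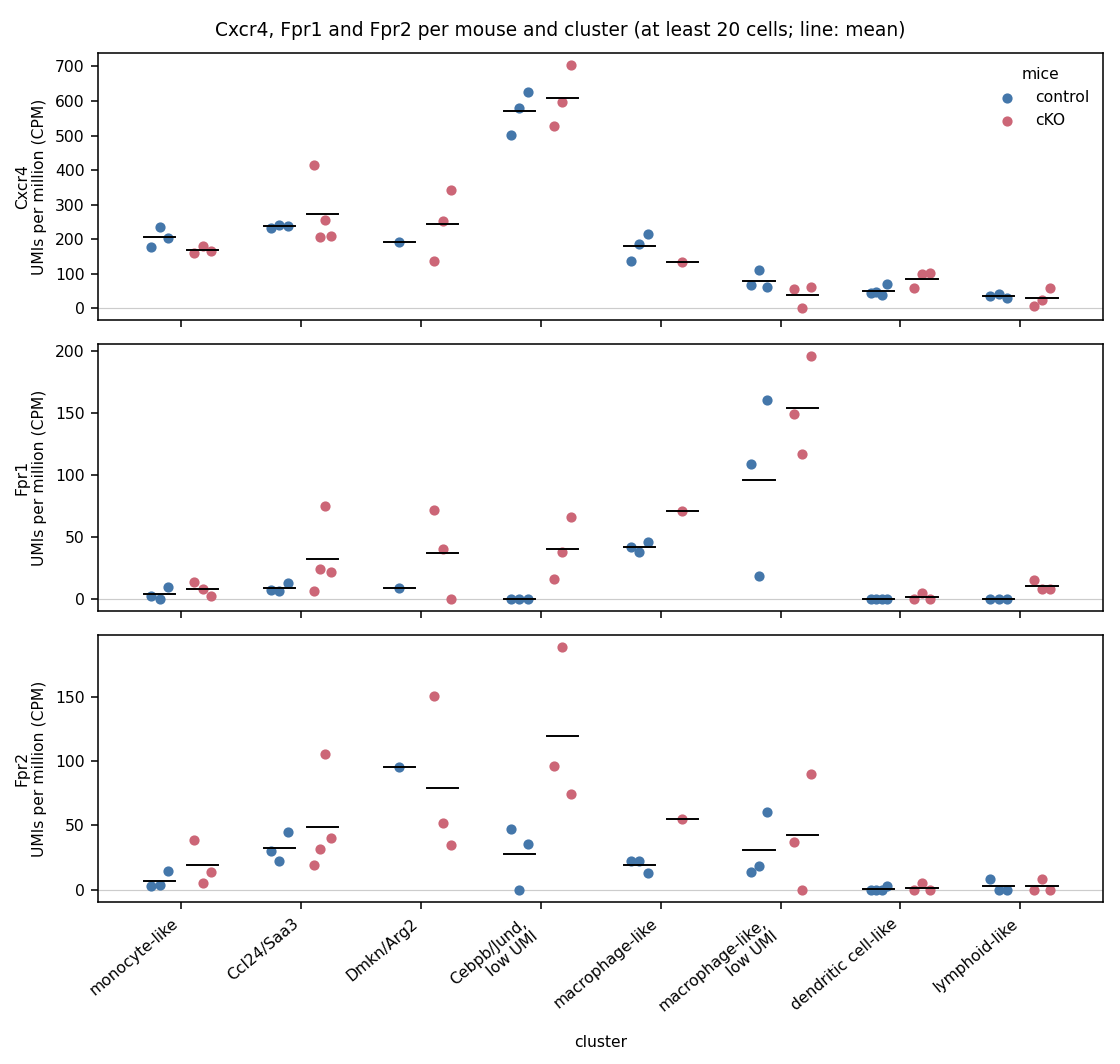
CPM of Cxcr4, Fpr1 and Fpr2 in each mouse with at least 20 cells of a cluster, control on the left and cKO on the right of each position, with a line at the mean. By the mean, Cxcr4 is highest in the Cebpb/Jund cluster in both groups and Fpr1 in macrophage-like cells of low UMI content. Fpr1 is at 0 in all 3 control mice of the Cebpb/Jund cluster.

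No receptor was called for a change that differed between clusters. The edgeR test of all differences between the 6 clusters called 7 of 10639 genes (0.0658%) and 0 of the 7 receptors. None had an unadjusted p under 0.05 (lowest 0.0669, for Ccrl2), and 0 were called with limma-voom when mouse entered as a random effect. The calls above therefore do not show that a change was particular to 1 cluster. With 3 or 4 mice per group in each cluster, the test does not show that the changes were equal either.

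The genes whose levels over 47 sums of mouse and cluster followed each receptor most closely are given as a description; the sums share libraries and differ in depth. For Ccr2 they were Ms4a8a, Adssl1 and Ptprc (Pearson r of 0.799, 0.791 and 0.776). For Ccrl2 they were Rab20, Cd14 and Cxcl2 (0.922, 0.915 and 0.906), where Cd14 encodes the lipopolysaccharide co-receptor and Cxcl2 a neutrophil chemokine. For Ccr7 they were Ccl22, Clec4g and Il4i1 (0.807, 0.803 and 0.730). For Ccr1 they included Igsf6 and Fcgr3 (0.905 and 0.878), and for Cxcr4 they were Itgam, Rnf149 and Picalm (0.886, 0.883 and 0.875). For Fpr1 they were Fcgr4, Cd38 and Acp5 (0.744, 0.740 and 0.732), and for Fpr2 Fth1, Il1rn and Clec4d (0.761, 0.752 and 0.748). Among the receptors, Ccr1 and Ccrl2 were closest (0.752), and Ccr7 had no r above 0.0964 with any of the other 6.

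Of 25 other chemoattractant receptors listed, 22 were in the table and 12 were tested in all cells. Of these, edgeR called 2 higher in cKO mice and 0 lower, beside 2.99% and 1.48% of all genes. DESeq2 called 3, for which no share of all genes is given. Their median log2 fold change was 0.35, against -0.03 over all genes. Ptafr, the receptor for platelet-activating factor, stood at 45.9 to 82.5 CPM in control and 183 to 263 CPM in cKO mice (1.83 ± 0.21, adjusted p = 0.000736). Cmklr1, the signalling receptor for chemerin, stood at 9.09 to 25.5 CPM and 28.0 to 56.2 CPM (1.36 ± 0.33, adjusted p = 0.0390). Ptafr was also called within the Ccl24/Saa3 cluster (0.97 ± 0.25, adjusted p = 0.0263) and the Cebpb/Jund cluster (1.59 ± 0.32, adjusted p = 0.00465), where 0.987% of genes were called higher and 0.761% were called in either direction. On average over clusters, 0 of 11 were called with edgeR, 0 had an unadjusted p under 0.05 and 0 were called with DESeq2.

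Of 18 genes listed as ligands of the receptors, 15 were tested. In all cells edgeR called 1 higher and 1 lower in cKO mice, beside 2.99% and 1.48% of all genes, and on average over clusters also 1 higher and 1 lower, beside 1.89% and 0.837%. The median log2 fold change of the 15 was 0.40 in all cells and -0.06 on average over clusters. Lgals3, which encodes galectin-3, stood at 935 to 1283 CPM in control and 1530 to 1935 CPM in cKO mice (0.65 ± 0.14, adjusted p = 0.0257). For galectin-3 no receptor among those examined is named here, so its call is not read as a rise of a receptor ligand. Cxcl12, the CXCR4 ligand, stood at 51.5 to 133 CPM and 11.3 to 48.6 CPM (-1.64 ± 0.40, adjusted p = 0.0393). Stromal-like cells made up 2.37% to 7.06% of the cells of control mice and 0.413% to 2.30% of cKO mice, and their part in the Cxcl12 value was not tested. On average over clusters, Saa3, a serum amyloid A and FPR2 ligand, rose by 2.17 ± 0.35 (adjusted p = 2.34e-05). In all cells Saa3 ranged from 114 to 821 CPM in control and from 20.1 to 3231 CPM in cKO mice. Both the lowest and the highest mouse were cKO mice, and it was not called (2.35 ± 0.94, adjusted p = 0.180). The lowest was cKO replicate 5, which entered the average over clusters only through the Ccl24/Saa3 cluster. On average over clusters Ccl3, a CCR1 ligand, fell by 0.68 on the log2 scale (SE 0.20, adjusted p = 0.0477). In all cells Ccl3 overlapped between the groups, at 365 to 703 CPM and 249.2 to 495 CPM. In monocyte-like cells Ccl7, a CCR2 ligand, fell by 3.21 (SE 0.73, adjusted p = 0.0163), where 0.489% of genes were called, while in all cells it overlapped and was not called (0.40 ± 0.41, adjusted p = 0.626).

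Of 24 genes of receptor signalling and desensitisation, all were tested. In all cells edgeR called 0 higher and 1 lower beside 2.99% and 1.48% of all genes, a share near that of all genes. DESeq2 called 2, for which no share of all genes is given. The median log2 fold change of the 24 was 0.12. The gene called by edgeR was Rgs18, a regulator of G protein signalling of blood cells, with 30.6 to 43.3 CPM in control and 12.1 to 17.1 CPM in cKO mice (-1.17 ± 0.18, adjusted p = 0.00471). It was also lower in the Ccl24/Saa3 cluster (-2.84 ± 0.54, adjusted p = 0.00119) and on average over clusters (-2.75 ± 0.64, adjusted p = 0.00597). The fitted values in the average ran from -0.18 ± 0.35 in dendritic cell-like cells to -5.24 ± 2.09 in the Cebpb/Jund cluster. The average is therefore not taken as a measure of size. Rgs10, of the same family, was lower on average over clusters (-0.46 ± 0.11, adjusted p = 0.00527), where 0.837% of all genes were called lower. The kinases and arrestins of the list (Adrbk1, Grk5, Grk6, Arrb1 and Arrb2) were not called by edgeR in any comparison.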

How the data were processed

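The table held UMI counts per gene and cell barcode of 8 libraries, 1 per mouse, prepared with 10x Genomics 3' chemistry on 1 cartridge. These counts were deposited by the authors as obtained with Cell Ranger and STAR 2.5.3a on mm10 with EYFP added (submitters' processing notes and the study's methods). All of the following was computed from the counts. Of 5947 barcodes, 3213 with log10 UMIs of at least 2.8, log10 genes of at least 2.6 and at most 5% mitochondrial UMIs were kept; Scrublet calls (15 control and 58 cKO cells, of which 24 in cKO replicate 5) were kept in the main analysis. Cells were clustered (scran 1.30.0, Ward clustering on 7 principal components) without 263 genes, among them the receptors, ligands and signalling genes. Sums of UMIs were formed for each mouse and for each cluster with at least 20 cells of a mouse, and tested with edgeR 4.0.16 (quasi-likelihood test, TMM) where a gene exceeded 1 CPM in 3 sums and was found in 20 cells. The joint fit over clusters treats sums of the same mouse as independent. Control replicate 3 entered it only through the dendritic cell-like cluster and cKO replicate 5 only through the Ccl24/Saa3 cluster. The scripts were tested on simulated counts with known changes. Limma 3.58.1 and DESeq2 1.42.0 served as alternatives, beside other filters, clusterings and each mouse left out. Positions are GENCODE vM21 and upstream sequences RefSeq. The receptors, gene lists and markers were chosen with earlier results of these data known. Named genes are the 7 receptors, Slc3a2, EYFP, up to 4 called genes per list and comparison, the 3 genes most like each receptor and leading genes of clusters, of which some are not reported here; each library is 1 mouse, so p-values for all cells summed measure the spread between mice, while those within and averaged over clusters measure the spread between 38 sums from 8 mice. Depth limits sparse genes: Fpr1 gave 321 UMIs in all.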

Additional observations from a re-analysis of the deposited data

Results flagged for a closer look

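In groups of 4 mice, 4 of 32 groups tested had a mouse far from the other 3. The gap to the nearest mouse was then over 0.829 of the range. Chance gives about 1 in 20 for independent, normally distributed values. Some of these groups share mice and UMIs and hold sparse counts, so 4 of 32 is not read as an excess. Ccr7 in all cells stood at 130.6 CPM in control replicate 4, against 6.73 to 21.3 CPM in the other control mice. Ccr7 in dendritic cell-like cells stood at 316.4 CPM in the same mouse, which held 12 of the 21 cells with at least 5 Ccr7 UMIs. Fpr2 in dendritic cell-like cells stood at 3.403 CPM in that mouse, from 4 UMIs, and at 0 in the other 3 control mice. Fpr1 in all cells stood at 20.37 CPM in control replicate 3, from 12 UMIs, against 10.4 to 11.7 CPM in the other control mice.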

How the results depend on the processing

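No paired analysis was possible because control and cKO mice share no replicate number. The fall of Ccr2 on average over clusters kept its direction and call under all 19 alternatives. For the counts of calls that follow, the share of all genes called under the same setting is not given. A rise or fall in these counts therefore cannot be told from a rise or fall over all genes. In all cells, 3 receptors were called, and 1 was with doublet calls left out, 0 without the dendritic cell-, lymphoid- and stromal-like clusters and 0 without the Dmkn/Arg2 cluster (chosen after seeing the data). Over single clusters 2 calls became 7 with no low-count filter and 1 with up to 10% mitochondrial UMIs, with at least 10 cells per sum, with Ward clustering on all genes and without the mice of under 100 cells (chosen after seeing the data); the other receptors' 2 calls became 5 with no filter. Within clusters the ligands' single call became 4 with DESeq2 and 19 with no filter; the single signalling calls in all cells and within clusters each became 2 with DESeq2. Leaving out each mouse in turn gave 0 to 3 receptor calls in all cells, 0 to 4 within clusters and 1 to 3 on average; for the other receptors 1 to 3 in all cells and 0 to 3 within clusters; for ligands 0 to 3, 0 to 5 within clusters and 1 to 3 on average; for signalling genes 1 to 2 within clusters and 1 to 3 on average.

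Without the dendritic cell-, lymphoid- and stromal-like clusters the all-cells values of Ccr1, Ccr2 and Ccr7 changed sign to -0.10, -0.24 and 2.12. Leaving out each mouse gave -0.043 (without control replicate 3) to 0.32 for Ccr2 and -1.55 to 0.66 (without control replicate 4) for Ccr7 in all cells, and on average over clusters -0.48 to 0.10 for Ccr1 and -0.32 to 0.064 for Cxcr4, none of them called. For the share of cells with a UMI (cKO minus control, percentage points), Ccr1 changed from 0.110 to -0.550 with cells thinned to 1000 UMIs and -0.900 with doublet calls left out, and Ccr2 to -1.17 with cells thinned to 1000 UMIs. Cxcr4 and Ccrl2 thinned to 2000 UMIs gave 6.77 and 15.8, and Fpr2 thinned to 1000 UMIs gave 3.597, each with an exact permutation p of 0.0286. The cause of these changes was not tested. DESeq2 was not run for the difference between clusters. At this depth Fpr1, Fpr2 and Ccr7 had few or no UMIs in many sums, and with 4 mice per group no exact p can fall below 0.0286.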
